A study of Mus musculus with 3 samples.

Results

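The 10 ER chaperone genes Hspa5, Hsp90b1, Calr, Pdia4, Pdia6, Dnajb9, Dnajb11, Sdf2l1, Manf and Creld2 were followed by name through a DRUG-seq2 screen of wild-type (WT) mouse embryonic fibroblasts (MEF). All 10 were found among the 20471 genes of the count table. DRUG-seq2 adds a barcode to the RNA of each well during reverse transcription, so that the wells of a plate are sequenced together. On 3 plates, the fibroblasts were cultured in CFAE+8 medium for 4 days, and each well received 1 compound from a kinase inhibitor library. A total of 218 compound wells of 211 compounds were used (87 compounds on plate 1, 84 on plate 2 and 40 on plate 3). Compounds were counted by name. Salt forms, such as CC_115 and its hydrochloride, were taken as 1 compound, and the spellings RG_14620 on plate 1 and RG14620 on plate 2 as separate ones. Plate 3 also held 30 wells named for 8 media: bC8FAE in 5 wells, bC6FAE[10], bCLFAE, bCSFAE and MEF in 4 wells each, and bC6FAE[2], bCFAE and basal in 3 wells each. The sources used here do not give the contents of these media or the compound doses, so the names serve as names only, with 1 exception. The name bC8FAE was read as CFAE+8 medium with no compound added, which no source states, and its 5 wells were therefore among the comparison wells of plate 3. None of the well names refers to a vehicle. Nothing states that wells came from separate cultures, so p-values measure the spread between wells. In such bulk wells, fewer cells of a type and less RNA per cell cannot be told apart.

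Proteins that are secreted or inserted into membranes fold in the endoplasmic reticulum (ER), where chaperones hold unfolded chains and enzymes form their disulfide bonds. When unfolded protein builds up, the sensors IRE1, PERK and ATF6 start the unfolded protein response, and the transcription factors ATF6 and XBP1 raise the genes of many ER chaperones. Fibroblasts secrete collagens and other matrix proteins and so pass a large load of protein through this compartment.

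The promoters of the members are shown because several hold the ER stress response element (ERSE), the motif through which ATF6 acts together with the factor NF-Y. The windows were read from RefSeq sequences on GRCm38.p6, in the direction of transcription, for 9 of the 10 members (all but Manf), each from 250 bases before to 50 bases after the gene start. The searched letters were CCAAT and CCACG with any 9 bases between them for ERSE, ATTGG and CCACG with any 1 base between them for ERSE-II, and TGACGTGG for the XBP1-bound element UPRE, on both strands. Capitals mark the match. ERSE matched in 5 of the 9 member promoters, against 39 of all 32851 promoters (0.119%). Dnajb11 held ERSE-II, which 12 of all promoters held (0.0365%). No member promoter held the UPRE letters, which 222 promoters held (0.676%). A match describes the letters in the window and does not show binding. The members were named as ER chaperone genes, the kind that ATF6 raises, so these shares describe the members and are not a test.
Hspa5, chr2:34772005-34772063, plus strand: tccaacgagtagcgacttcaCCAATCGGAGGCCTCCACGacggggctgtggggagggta
Hsp90b1, chr10:86705618-86705676, minus strand: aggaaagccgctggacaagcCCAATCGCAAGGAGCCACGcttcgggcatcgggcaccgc
Hsp90b1, chr10:86705513-86705571, minus strand: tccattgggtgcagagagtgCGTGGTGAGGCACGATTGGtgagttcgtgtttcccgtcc
Calr, chr8:84847055-84847113, minus strand: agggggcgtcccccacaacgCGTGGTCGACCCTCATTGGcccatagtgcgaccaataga
Pdia6, chr12:17266471-17266529, plus strand: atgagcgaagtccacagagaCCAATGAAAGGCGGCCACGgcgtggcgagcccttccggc
Creld2, chr15:88819500-88819558, plus strand: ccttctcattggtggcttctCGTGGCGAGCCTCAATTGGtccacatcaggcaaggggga
Dnajb11, chr16:22857852-22857862, plus strand, match only: ATTGGCCCACG
In Hspa5 the match lay 65 to 47 bases before the RefSeq start. The annotation GENCODE vM21 starts this gene further upstream, at chr2:34771970, so the match lies inside the gene there. The Pdia4 window (chr6:47813463-47813762, minus strand) lies wholly before the GENCODE start at 47813430. Hsp90b1 held 2 matches, of which the one nearer the start and those of Calr and Creld2 ran in the reverse orientation.

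Total counts of the compound wells ranged from 45416 to 591025 on plate 1 (median 318166), from 92437 to 1206219 on plate 2 (median 606767) and from 222067 to 703918 on plate 3 (median 433274). Totals of the media wells lay between 119295 and 726228, and bC8FAE 4 (119295) and MEF 3 (138747) stood lowest. All 11 fibroblast marker genes were detected in every media well, with a summed level of 4815 to 8155 CPM, and their sum was 2263 to 10320 CPM in the 223 screening wells (the 218 compound wells and the 5 bC8FAE wells). In screening wells the markers of macrophages summed to 0 to 641 CPM, those of epithelium to 0 to 601 CPM and those of skeletal muscle to 0 to 473 CPM. Of these markers, Ptprc was at 0 in 217 of the 223 wells, Epcam in 217, Cdh1 in 208 and Cldn4 in 180. Myod1 was at 0 in 178 and Myog in 158, so the epithelial and muscle sums come mostly from Krt8, Krt18, Des and Actc1. The unit CPM is a gene's count scaled to the total of its well, and levels are compared only between wells for the same gene. Dnajb11, Sdf2l1, Calr, Hspa5 and Creld2 shared no exon with another gene in GENCODE vM21. Exons of Manf (chr9:106838312-106891979) overlapped those of Rbm15b on the same strand and of Dcaf1 and 4930524O07Rik on the other, and those of Pdia6 overlapped Atp6v1c2 on the other strand. Exons of Hsp90b1 overlapped those of Gm15344 and Gm25745 on the same strand and of 1810014B01Rik on the other, those of Pdia4 overlapped Mir704 on the same strand, and those of Dnajb9 overlapped Mir5627 on the other. The sources used here do not say whether the counting used strand, so reads of these 5 members cannot be fully told apart from those of their neighbours.

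The basal and MEF wells had the highest mean levels of Hspa5, Hsp90b1, Calr, Pdia4 and Creld2 among the 8 media. Hspa5, the Hsp70 chaperone of the ER (BiP), averaged 338 ± 117 CPM in bC8FAE (SD, n = 5), 295 ± 14.1 in bC6FAE[10] (n = 4), 255 ± 16.4 in bC6FAE[2] (n = 3), 283 ± 29.6 in bCLFAE (n = 4), 259 ± 40.8 in bCSFAE (n = 4), 254 ± 40.2 in bCFAE (n = 3), 448 ± 54.5 in basal (n = 3) and 464 ± 150 in MEF (n = 4). In the order from the highest mean to the lowest, each medium's range of Hspa5 overlapped the next. The same held for every other member with 1 exception: the lowest basal well of Calr (2716 CPM) stood above the highest bC6FAE[10] well (2673 CPM), the next medium in its order. Between basal and MEF wells, 0 of the 10 members were called at an adjusted p under 0.05 in edgeR's quasi-likelihood test (0 also had an unadjusted p under 0.05), where 0.687% of all tested genes were called.

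**Figure D1:**
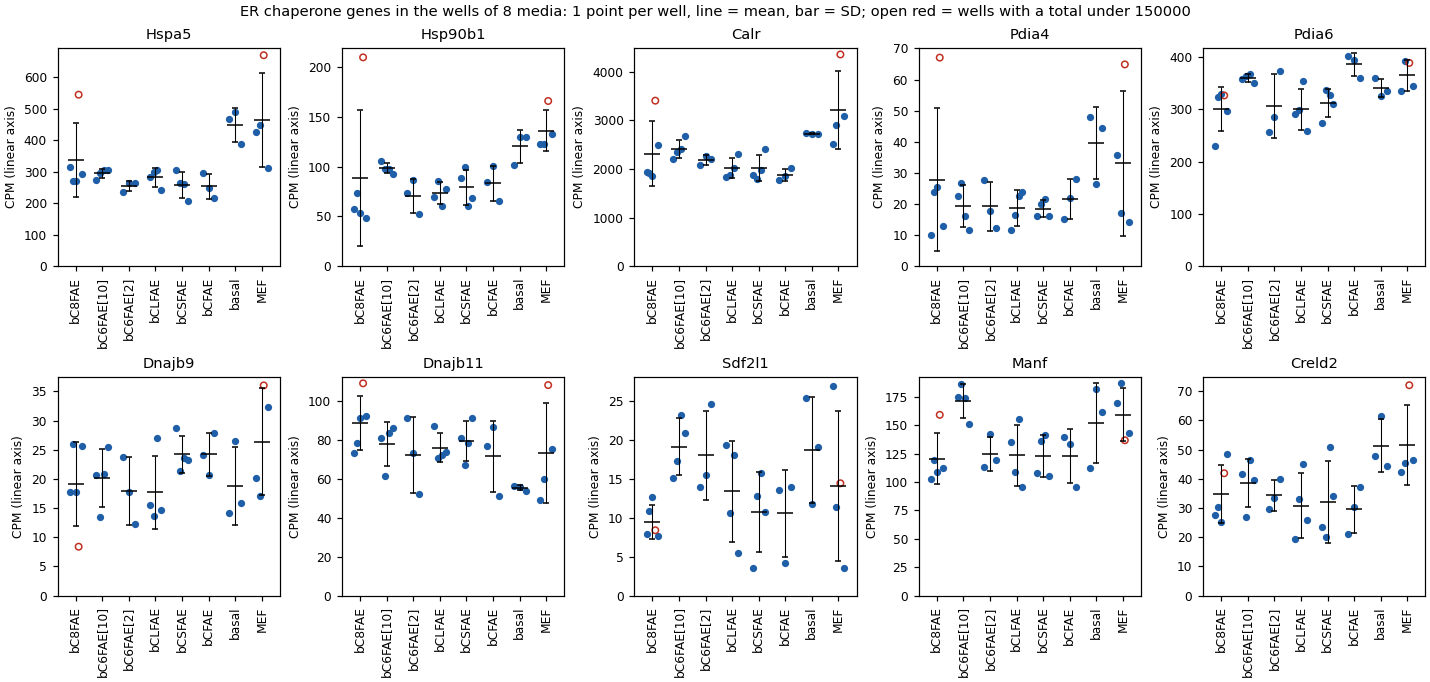
Level in CPM (vertical, linear axis) of each ER chaperone gene in the 30 wells of 8 media (horizontal); points are wells, lines the mean, bars the SD, and open red circles the wells bC8FAE 4 and MEF 3 with totals under 150000. The basal and MEF wells of Calr reach 2509 CPM or more, and the 3 bCFAE wells stay at 2015 CPM or less.

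In bCFAE, 5 of the 10 ER chaperone genes were lower than in basal medium and 0 were higher, where 16.3% of all tested genes were called higher and 18.2% lower. The members' median log2 fold change was -0.65, against 0.00276 for all genes. Hspa5 had 296, 249 and 216 CPM in bCFAE wells, against 468, 490.4 and 387 CPM in basal wells. The groups did not overlap, and the log2 fold change was -0.95 ± 0.16 (SE; adjusted p = 2.08e-06). Calr, the lectin chaperone calreticulin, which binds sugar chains of new glycoproteins, had 1770, 1847 and 2015 CPM in bCFAE wells, against 2743, 2716 and 2720 CPM in basal wells. Its groups did not overlap either, with a log2 fold change of -0.68 ± 0.15 (adjusted p = 0.000185). Hsp90b1, the Hsp90 of the ER (GRP94), had 84.2, 100.5 and 65.1 CPM in bCFAE wells, against 101.5, 129 and 130.0 CPM in basal wells. All 3 bCFAE wells lay below the basal wells, the highest of them by about 1 CPM, and the log2 fold change was -0.62 ± 0.22 (adjusted p = 0.0208). Creld2, a secreted ER stress-inducible protein with disulfide isomerase activity, had 21.1, 30.3 and 37.2 CPM in bCFAE wells, against 47.9, 61.7 and 44.4 CPM in basal wells. The groups were separate, with a log2 fold change of -0.98 ± 0.31 (adjusted p = 0.0104). Pdia4, the disulfide isomerase ERp72, had 15.0, 22.03 and 27.9 CPM in bCFAE wells, against 47.9, 26.4 and 44.4 CPM in basal wells. These are 9 to 17 counts a well, the groups overlapped, and the log2 fold change was -1.05 ± 0.38 (adjusted p = 0.0247).

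The other 5 members did not pass this test. Manf, a small secreted protein that binds Hspa5, had a log2 fold change of -0.41 ± 0.18 (adjusted p = 0.0700), and was called without basal 1 (-0.57). Sdf2l1, which keeps Hspa5 complexes soluble, had 3 to 9 counts in every well of both media and a log2 fold change of -1.04 ± 0.52 (adjusted p = 0.115). Pdia6, the disulfide isomerase P5, had 0.05 ± 0.14. The J-domain proteins, which drive the ATPase of Hspa5, had 0.19 ± 0.38 (Dnajb9, also ERdj4) and 0.28 ± 0.23 (Dnajb11, also ERdj3). The calls of Hspa5 and Calr held without any single well, with log2 fold changes of -1.06 to -0.86 and -0.73 to -0.62. Hsp90b1 was not called without basal 2 (-0.55), basal 3 (-0.57), bCFAE 1 (-0.60) or bCFAE 3 (-0.50), nor with library totals as the scale (-0.49). Pdia4 was not called without basal 1 (-0.85), basal 3 (-0.97), bCFAE 1 (-0.82) or bCFAE 2 (-1.08), nor with library totals (-0.91), and Creld2 was not called without basal 2 (-0.81) or bCFAE 1 (-0.76). Summed markers of 3 other cell types also differed with no overlap. The 5 macrophage markers in the table summed to 48.9 to 52.3 CPM in bCFAE wells, against 129 to 285 CPM in basal wells, with Ptprc at 0 in all 30 media wells. The 5 epithelial markers summed to 61.7 to 88.4 CPM in bCFAE wells, against 15.9 to 38.2 CPM in basal wells. Of these, Epcam was at 0 in 28 of the 30 media wells, Cdh1 in 27 and Cldn4 in 22, so the sum comes mostly from Krt8 and Krt18. The 4 skeletal muscle markers summed to 20.9 to 28.6 CPM in bCFAE wells, against 29.4 to 41.2 CPM in basal wells. Of these, Myod1 was at 0 in 26 of the 30 media wells and Myog in 28, so the sum comes mostly from Des and Actc1. Well totals differed with no overlap too, with 315416 to 354766 counts in basal wells and 429866 to 726228 in bCFAE wells. The part of the markers and of depth in these results was not tested.

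Other genes of the secretory pathway were lower in bCFAE as well. Of 20 tested ER folding factors besides the members, 10 were lower and 0 higher, with a median log2 fold change of -0.66. Fkbp14 (-2.07 ± 0.27), Fkbp9 (-1.16 ± 0.14) and Serpinh1, the collagen chaperone (-0.81 ± 0.13), were among them, as were Cnpy2 (-1.21 ± 0.20), Erp44 (-1.05 ± 0.28) and Erp29 (-0.75 ± 0.12). Among 8 UPR sensors and transcription factors, 5 were lower, including Xbp1 (-0.95 ± 0.18) and the collagen-linked factor Creb3l1 (-1.23 ± 0.30), and 0 were higher. Of 18 matrix genes that fibroblasts secrete, 14 were lower and 1 was higher, led by Lox (-5.18 ± 0.25), a collagen cross-linking enzyme, and Dcn (-4.31 ± 0.34). Of 26 genes of ER-associated degradation and translocation, 6 were lower and 2 higher. Cytosolic heat shock genes went the other way in number, with 7 of 14 higher, such as Cryab (2.83 ± 0.22), and 1 lower. Of 13 genes of the ATF4 and CHOP branch, 5 were higher, led by the cystine transporter Slc7a11 (6.25 ± 1.17), and 3 were lower, including Ddit3 (-0.92 ± 0.20), which encodes CHOP.

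In bC8FAE, 5 members were lower than in MEF medium and 0 were higher, where 15.2% of all tested genes were called higher and 16.9% lower. The members' median log2 fold change was -0.56, against 0.0148 for all genes. Hsp90b1 had 57.3, 73.8, 53.1, 209.6 and 48.6 CPM in bC8FAE wells, against 123, 122, 166 and 133 CPM in MEF wells. The groups overlapped only through bC8FAE 4, the well of lowest total, and the log2 fold change was -0.96 ± 0.21 (adjusted p = 0.000145). Calr had 1937, 1916, 1844, 3403 and 2484 CPM in bC8FAE wells, against 2509, 2894, 4353 and 3095 CPM in MEF wells. Here too bC8FAE 4 alone reached into the MEF range, and the log2 fold change was -0.56 ± 0.12 (adjusted p = 0.000178). Hspa5 had 314, 269, 271, 545 and 292 CPM in bC8FAE wells, against 425, 449, 670.3 and 312 CPM in MEF wells. The groups overlapped, and the log2 fold change was -0.57 ± 0.14 (adjusted p = 0.000844). Manf had 103, 119.5, 109, 159 and 113 CPM in bC8FAE wells, against 170.0, 188, 137 and 143.5 CPM in MEF wells. Only bC8FAE 4 lay above the lowest MEF well, and the log2 fold change was -0.58 ± 0.16 (adjusted p = 0.00432). Pdia6 had 229, 324, 329, 327 and 297 CPM in bC8FAE wells, against 335.5, 392, 389 and 344 CPM in MEF wells. Its groups did not overlap, with a log2 fold change of -0.35 ± 0.13 (adjusted p = 0.0279), and the call was lost without bC8FAE 1 (-0.25) or MEF 2 (-0.31) and with library totals (-0.29). All 5 calls held without the low wells MEF 3 and bC8FAE 4.

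The members that did not pass between bC8FAE and MEF were Creld2 (-0.58 ± 0.28, adjusted p = 0.112), Pdia4 (-0.51 ± 0.38), Sdf2l1 (-0.73 ± 0.51), Dnajb9 (-0.26 ± 0.34) and Dnajb11 (0.31 ± 0.20). Creld2 was called lower without bC8FAE 5 (-0.78) and with the replicate block (-0.81). Summed macrophage markers were 36.9 to 83.8 CPM in bC8FAE wells, against 193 to 339 CPM in MEF wells, and their part in the result was not tested. Of the other ER folding factors, 11 of 20 were lower and 0 higher, led by Fkbp14 (-1.93 ± 0.25). Of the matrix genes, 15 of 18 were lower and 3 higher, led by Lox (-6.32 ± 0.27). Of the degradation and translocation genes 6 of 26 were lower and 1 was higher, and of the UPR sensors and factors 3 of 8 were lower, again with Creb3l1 (-1.71 ± 0.30) and Xbp1 (-0.60 ± 0.16). Of the ATF4 and CHOP branch 5 of 13 were lower and 2 higher, and of the heat shock genes 4 of 14 were higher and 1 lower.

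In bC6FAE[10], 2 members were higher than in bCFAE and 0 were lower, where 7.59% of all genes were called higher and 6.06% lower. Manf had 175, 186, 174 and 151 CPM in bC6FAE[10] wells, against 139.9, 134 and 95.4 CPM in bCFAE wells. The groups did not overlap, and the log2 fold change was 0.50 ± 0.15 (adjusted p = 0.0172). Calr had 2214, 2338, 2412 and 2673 CPM in bC6FAE[10] wells, against 1770, 1847 and 2015 CPM in bCFAE wells. These groups were separate as well, with a log2 fold change of 0.41 ± 0.14 (adjusted p = 0.0342). Neither call held in every alternative. Manf was not called without bC6FAE[10] 2 (0.46) or bCFAE 3 (0.40), nor with no filter on low counts (0.47). Calr was not called without bC6FAE[10] 2 (0.42), 3 (0.41) or 4 (0.34), without bCFAE 1 (0.36) or 2 (0.39), with library totals (0.36), with no filter on low counts (0.38), or with the replicate block (0.34, adjusted p = 0.0596). The members' median was 0.25, against -0.00551 for all genes. Summed fibroblast markers were 7080 to 8155 CPM in bC6FAE[10] wells, against 4990 to 5472 CPM in bCFAE wells, and the 5 endothelial markers 4.64 to 17.0 CPM, against 2.33 to 4.51 CPM. Of the endothelial markers, Pecam1 was at 0 in 28 media wells and Tie1 in 30. The part of the summed markers in the result was not tested. Of the other folding factors 5 of 20 were higher and 0 lower, including Cnpy2 (0.73 ± 0.18) and Ppib (0.59 ± 0.11), and of the matrix genes 10 of 18 were higher, led by Lum (3.23 ± 0.44), and 2 lower.

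No member was called in bC8FAE, bC6FAE[2], bCLFAE or bCSFAE against bCFAE, nor in bC6FAE[10] against bC6FAE[2], where 11.1%, 8.58%, 6.5%, 6.1% and 0.415% of all genes were called. At an unadjusted p under 0.05 the numbers of members were 3, 1, 1, 1 and 1. The share of all genes under that unadjusted threshold is not given here, so these numbers are read as no finding. DESeq2 also called 0 members in each of these 5 comparisons. Pdia6 came nearest to a call in bC8FAE against bCFAE, with 301 ± 42.2 CPM in bC8FAE wells (SD, n = 5) and 386 ± 22.6 CPM in bCFAE wells (n = 3), a log2 fold change of -0.35 ± 0.12 and an adjusted p of 0.0543. It was called without bC8FAE 2 (-0.41), without bC8FAE 3 (-0.41), without MEF 3 and bC8FAE 4 together (-0.35) and with library totals (-0.39). Pdia6 was also called lower in bCLFAE without bCLFAE 3 (-0.44) or without the low wells (-0.35), and Calr higher in bC6FAE[2] without the low wells (0.30). Of these 5 comparisons, the 4 against bCFAE share its wells.

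Across the compounds, 15 of 2023 tests of a member were called, 10 higher in 4 compounds and 5 lower in 5 compounds. Over all genes and compounds, 0.365% of tests were called higher and 0.276% lower. Each compound was compared with every other compound well of its plate and, on plate 3, with the bC8FAE wells too. Most compounds had 1 well, and a lone well was assumed to vary like the others. At an unadjusted p under 0.05, 12 tests of members were higher and 27 lower of 783 on plate 1, 21 and 19 of 840 on plate 2, and 12 and 9 of 400 on plate 3. Chance alone gives such a p in about 1 of 20 tests. These unadjusted counts lie near that share and are read as no finding. Dnajb9 was tested in 124 compounds, since its counts were too low for the filter on plate 1, and the other members in all 211. Manf was called higher in 3 compounds, Hsp90b1 in 2, and Hspa5, Dnajb9, Dnajb11, Sdf2l1 and Creld2 in 1. Calr was called lower in 4 compounds and Pdia6 in 1, and Pdia4 was called in 0. Adjusted over all compounds of a plate together, 6 of the 15 calls remained: Hspa5, Hsp90b1, Dnajb9 and Manf in NT157, and Calr in Avitinib and BEZ235.

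**Figure D2:**
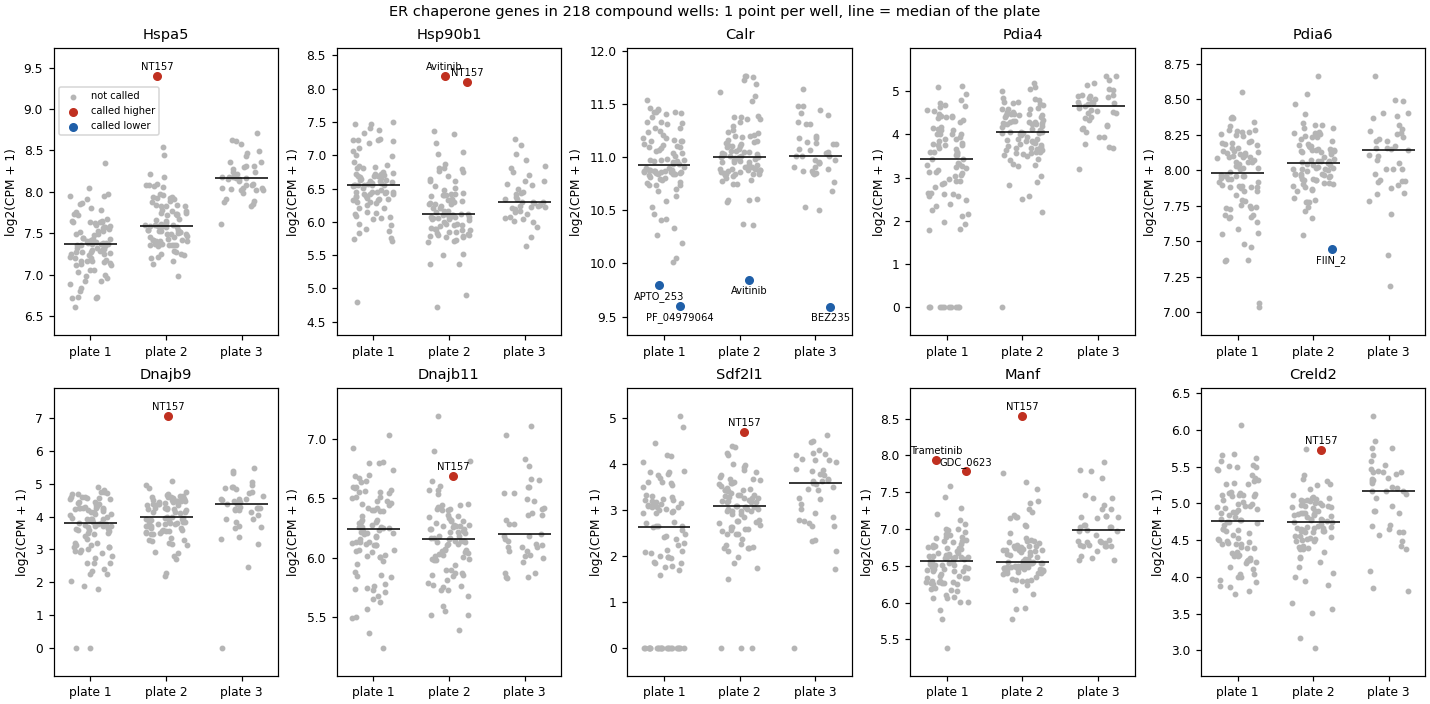
Level of each ER chaperone gene as log2(CPM + 1) (vertical) in the 218 compound wells, by plate (horizontal); points are wells, lines plate medians, red and blue points wells called higher and lower. The NT157 well lies above the other 86 wells of plate 2 for Hspa5, Dnajb9, Sdf2l1 and Manf.

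NT157, known for lowering the insulin receptor substrates and for inhibiting STAT3, was the only compound with at least 5 members called in 1 direction: 7 were higher and 0 lower, where 15.1% of all genes were called higher and 13.1% lower. The members' median log2 fold change was 1.37, against -0.12 for all genes. Its well on plate 2 had a total of 519263, 85.6% of the plate's median. Dnajb9 had 133 CPM in the NT157 well, against 3.60 to 33.1 CPM in the other 86 wells (median 14.7). This was the largest of the 15 called differences, a log2 fold change of 3.10 ± 0.31. Hspa5 had 676 CPM in the NT157 well, against 126 to 371 CPM in the other wells (median 191). The well stood above all others, with a log2 fold change of 1.84 ± 0.19. Manf had 369.8 CPM in the NT157 well, against 54.0 to 216 CPM in the others (median 92.9). It too was above every other well, with a log2 fold change of 1.92 ± 0.26. Hsp90b1 had 273.5 CPM in the NT157 well, against 25.2 to 292 CPM in the others (median 68.2). Only the Avitinib well was higher, and the log2 fold change was 1.94 ± 0.32.

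The remaining 3 calls in NT157 rested on lower counts or smaller differences. Sdf2l1 had 25.0 CPM (13 counts) in the NT157 well, against 0 to 20.2 CPM in the others (median 7.43), with a log2 fold change of 1.64 ± 0.54 (adjusted p = 0.0153). Creld2 had 52.0 CPM (27 counts), against 7.20 to 52.6 CPM (median 25.5), with 1 well above it and a log2 fold change of 1.09 ± 0.35 (adjusted p = 0.0138). Dnajb11 had 102 CPM, against 40.9 to 144.8 CPM (median 70.0), with 3 wells above it, a log2 fold change of 0.62 ± 0.24 and an adjusted p of 0.0481. That call was lost with library totals (0.55) or no filter on low counts (0.59). The other 3 members were not called. Calr had 2022 CPM in the NT157 well, against a median of 2049 CPM in the others, and 46 of the 86 wells were above it. Pdia6 had 269.6 CPM, against a median of 263 CPM, and a log2 fold change of 0.08. Pdia4 had 30.8 CPM (16 counts), against a median of 15.6 CPM, and a log2 fold change of 0.99 (adjusted p = 0.106).

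The NT157 well also differed in other stress genes. Of 19 tested genes of the ATF4 and CHOP branch, 9 were higher and 0 lower, including Ddit3 (3.18 ± 0.32), Atf3 (3.11 ± 0.52) and Chac1 (3.07 ± 0.64), a glutathione-degrading enzyme. Of 15 cytosolic heat shock genes, 6 were higher and 0 lower, including Hspb1 (3.70 ± 0.31), Hspa1b (3.48 ± 0.53) and Hsp90aa1 (2.15 ± 0.36). Of 26 degradation and translocation genes, 10 were higher and 2 lower, with Herpud1, a part of the ER degradation machinery, at 2.17 ± 0.35. The other ER folding factors were divided, with 5 of 20 higher and 5 lower. Ero1l (2.68 ± 0.43), the oxidase that recharges disulfide isomerases, Pdia3 (2.21 ± 0.25) and the J-domain protein Dnajc3 (1.72 ± 0.28) were higher, and Dnajc10 (-1.56 ± 0.28) and Serpinh1 (-1.08 ± 0.27) were lower. Of 18 matrix genes, 7 were lower and 0 higher, led by Lum (-4.47 ± 1.66) and the collagen VI genes Col6a3 (-4.35 ± 0.88) and Col6a2 (-4.26 ± 0.67). Of 10 UPR sensors and factors, 2 were lower, Nfyc (-1.58 ± 0.40) and Mbtps1 (-1.35 ± 0.43), and 0 were higher.

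Calr was the member called lower most often, in APTO_253 and PF_04979064 on plate 1, Avitinib on plate 2 and BEZ235 on plate 3. In the wells of PF_04979064 and BEZ235, both inhibitors of PI3K and mTOR, it had 774 CPM, against 889 to 2967 CPM in the other 89 wells of plate 1 (median 1955), and 768 CPM, against 1446 to 3186 CPM in the other 40 compound wells of plate 3 (median 2082). Each was the lowest well of its plate, with log2 fold changes of -1.39 ± 0.36 (adjusted p = 0.0137) and -1.43 ± 0.31 (adjusted p = 0.00171). APTO_253, known for inducing KLF4 and lowering MYC, had 889 CPM, with 1 well of plate 1 below it, and a log2 fold change of -1.25 ± 0.35 (adjusted p = 0.0244). Avitinib, an EGFR inhibitor, had 919.5 CPM, against 1316 to 3475 CPM in the other wells of plate 2 (median 2049), and a log2 fold change of -1.38 ± 0.31 (adjusted p = 0.00348). In these compounds, 1.69% (PF_04979064), 4.83% (BEZ235), 1.7% (APTO_253) and 1.62% (Avitinib) of all genes were called lower.

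Avitinib was also the compound with a called Hsp90b1 besides NT157. Hsp90b1 had 292 CPM in the Avitinib well, from 27 counts, against 25.2 to 273.5 CPM in the other wells of plate 2. The log2 fold change was 1.77 ± 0.53 (adjusted p = 0.0451), and the call was lost with no filter on low counts (1.73). Of all genes 0.976% were called higher in Avitinib. The well had the lowest total of the plate, 15.2% of its median, and the median log2 fold change of all genes in it was -0.38. FIIN_2, an FGFR inhibitor, had 173 CPM of Pdia6, against 185 to 405 CPM in the other wells of plate 2 (median 265). It was the lowest well, with a log2 fold change of -0.89 ± 0.27 (adjusted p = 0.0238; 4.59% of all genes called lower), and the call was lost with library totals (-0.63).

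Manf was the called member in the wells of 2 MEK inhibitors on plate 1. It had 245 CPM in the Trametinib well and 220.0 CPM in the GDC_0623 well, against a plate median of 93.9 CPM. These were the highest wells of the plate, with log2 fold changes of 1.13 ± 0.31 (adjusted p = 0.00797; 7.37% of all genes called higher) and 1.06 ± 0.31 (adjusted p = 0.0249; 3.6% called higher). Sdf2l1 was also called higher in Trametinib with RLE size factors (2.34, adjusted p = 0.0417) or library totals (2.39, adjusted p = 0.0394).

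**Figure D3:**
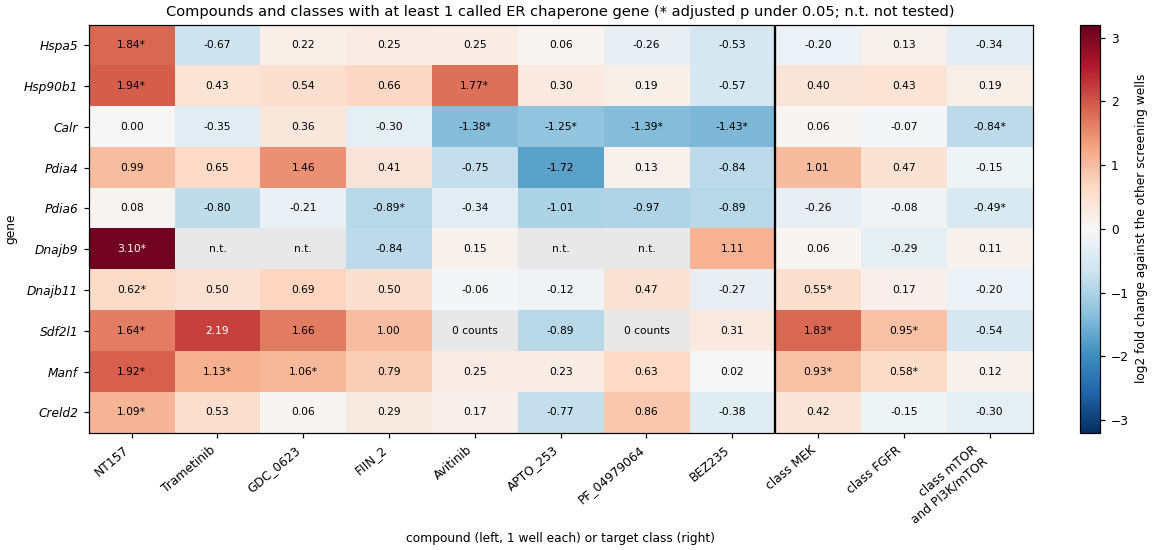
Log2 fold change (colour and number) of the 10 members (vertical) in the 8 compounds with a called member and the 3 target classes with one (horizontal), each against the other screening wells; asterisks mark adjusted p under 0.05. In the NT157 column 7 members carry an asterisk, with Dnajb9 highest at 3.10, and Calr carries one in the columns of Avitinib, APTO_253, PF_04979064 and BEZ235.

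Compounds were also grouped into target classes, so that wells of different compounds stand for each other. Of 28 classes with at least 3 compounds, 3 had a called member, with 5 of 280 tests called higher and 2 lower, where 1.54% of tests over all genes and classes were called higher and 1.19% lower. The classes share their comparison wells. In the 3 MEK inhibitors, all on plate 1, Manf, Sdf2l1 and Dnajb11 were higher and 0 members lower, where 10.6% of all genes were called higher and 10.8% lower. Manf had 220.0 CPM in GDC_0623, 66.1 CPM (3 counts) in Ro_5126766 and 245 CPM in Trametinib, against the plate median of 93.9 CPM. Only the first and last of these wells were above the median, and the class log2 fold change was 0.93 ± 0.23 (adjusted p = 0.00109). Sdf2l1 had 21.1 CPM (7 counts) in GDC_0623, 0 counts in Ro_5126766 and 32.1 CPM (8 counts) in Trametinib, against a plate median of 5.22 CPM. Its log2 fold change was 1.83 ± 0.51 (adjusted p = 0.00450). Dnajb11 had 130 CPM in GDC_0623, 88.1 CPM (4 counts) in Ro_5126766 and 120 CPM in Trametinib, against a plate median of 74.5 CPM. All 3 wells lay above the median, with a log2 fold change of 0.55 ± 0.19 (adjusted p = 0.0231).

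The Ro_5126766 well had the lowest total of plate 1, 45416 counts. All 3 calls of the MEK class held against plate 1 alone, and all 3 were lost without GDC_0623 (Manf 0.79, Sdf2l1 1.89, Dnajb11 0.40) or without Trametinib (Manf 0.76, Sdf2l1 1.45, Dnajb11 0.56). Pdia4 (1.01 ± 0.46, adjusted p = 0.108), Hsp90b1 (0.40 ± 0.28) and Hspa5 (-0.20 ± 0.22) were not called. The members' median was 0.41, against -0.08 for all genes. Of the other folding factors 7 of 20 were higher and 0 lower, led by Fkbp14 (2.00 ± 0.33) and Pdia5 (1.49 ± 0.49). Of the UPR sensors and factors 4 of 9 were higher, led by Creb3l1 (2.23 ± 0.39). Matrix genes were higher in 13 of 18 cases and lower in 2, led by Lox (3.93 ± 0.54) and Col1a1 (3.60 ± 0.39).

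In the 4 FGFR inhibitors, all on plate 2, Manf and Sdf2l1 were higher and 0 members lower, where 7.81% of all genes were called higher and 4.85% lower. Manf had 153 CPM in Dovitinib, 198.5 CPM in Erdafitinib, 216 CPM in FIIN_2 and 87.4 CPM in SU_5402, against a plate median of 93.04 CPM. The SU_5402 well was the one below the median, and the log2 fold change was 0.58 ± 0.17 (adjusted p = 0.0126). Sdf2l1 had 19.7, 17.9, 20.2 and 8.995 CPM in the same order of compounds, from 7 to 14 counts, against a median of 7.46 CPM. Its log2 fold change was 0.95 ± 0.33 (adjusted p = 0.0429). Manf was not called without Erdafitinib (0.48) or FIIN_2 (0.49), and Sdf2l1 was not called without Dovitinib (0.79), Erdafitinib (0.92) or FIIN_2 (0.91). Hsp90b1 had 0.43 ± 0.20 and did not pass (adjusted p = 0.164), but was called without SU_5402 (0.64). The members' median was 0.15, against -0.012 for all genes. Of the other folding factors 6 of 20 were higher and 0 lower, and of the matrix genes 12 of 18 were higher and 2 lower.

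In the 5 inhibitors of mTOR or of PI3K and mTOR, Calr and Pdia6 were lower and 0 members higher, where 9.86% of all genes were called higher and 8.74% lower. Calr had 1032 CPM in GNE_317, 774 CPM in PF_04979064 and 1588 CPM in PI_103 on plate 1, against a plate median of 1937 CPM. On plate 2 it had 1551 and 1327 CPM in the wells of CC_115 and its hydrochloride, against a median of 2048 CPM. On plate 3 it had 768 CPM in BEZ235, against 2061 CPM. Every well of the class lay below its plate median, and the log2 fold change was -0.84 ± 0.13 (adjusted p = 6.77e-08). Pdia6 had 163, 130.0 and 219 CPM in GNE_317, PF_04979064 and PI_103, against 251 CPM on plate 1. It had 251 and 213 CPM in the CC_115 wells, against 264 CPM on plate 2, and 144.8 CPM in BEZ235, against 282 CPM on plate 3. These wells too were all below their plate medians, with a log2 fold change of -0.49 ± 0.12 (adjusted p = 0.000996). Both calls held when any 1 compound was left out, with Calr at -0.98 to -0.75 and Pdia6 at -0.62 to -0.42. Hspa5 had -0.34 ± 0.14 and did not pass (adjusted p = 0.0672), but was called without PI_103 (-0.40). Of the ATF4 and CHOP branch 2 of 17 were higher and 2 lower, and of the matrix genes 0 of 18 were called.

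In the class of 3 inhibitors of CDK7 and CDK9, 0 members were called in edgeR's test, where 7.44% of all genes were called higher and 5.05% lower. Calr, Pdia6 and Dnajb11 had an unadjusted p under 0.05. The share of all genes under that unadjusted threshold is not given here, so these 3 members are not counted as changed. Dnajb11 had 137 and 129.8 CPM in the wells of THZ1 and LDC4297 on plate 3, against a plate median of 72.3 CPM, and 56.8 CPM in CDK9_IN_1 on plate 2, against 70.3 CPM. The wells of plate 3 were above their median and the third was below it, and the class log2 fold change was 0.34 ± 0.15. With library totals as the scale Dnajb11 was called higher (0.50, adjusted p = 0.0277). That scale moved the class's median of all genes by 0.14. Manf had 222 and 219.7 CPM in THZ1 and LDC4297, against 125 CPM on plate 3, and 92.2 CPM in CDK9_IN_1, against 93.04 CPM on plate 2. Calr had a class log2 fold change of -0.43 ± 0.19 and Pdia6 one of -0.36 ± 0.16.

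**Figure D4:**
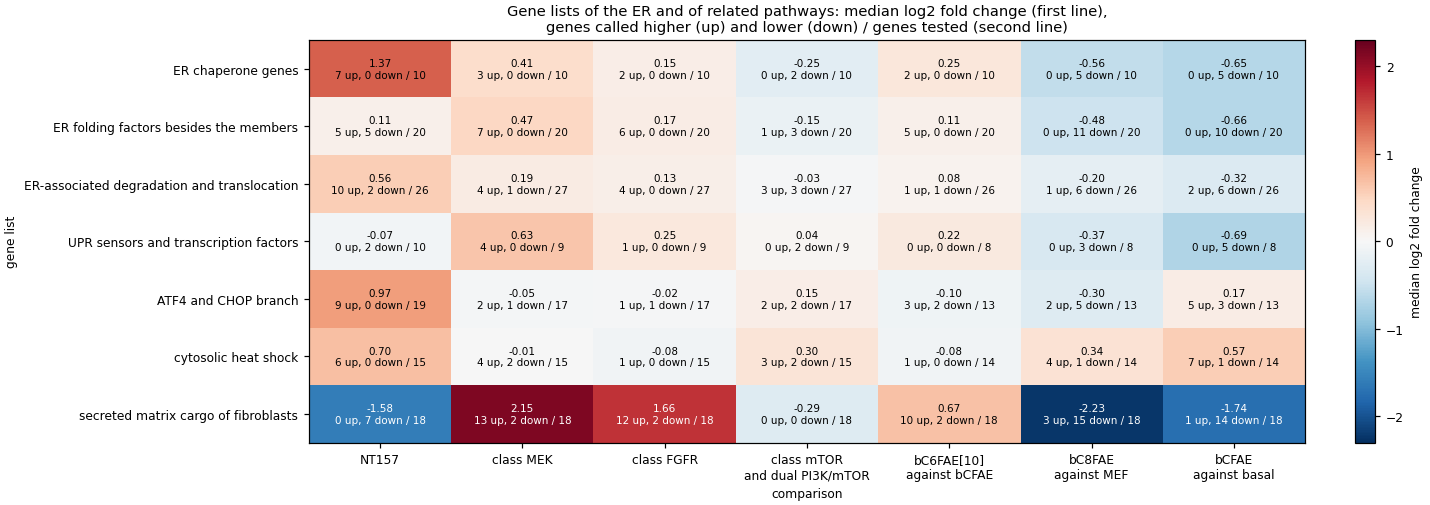
Median log2 fold change (colour and first number) and genes called higher (up) and lower (down) out of those tested (second line) for the ER chaperone genes and 6 other lists (vertical) in 7 comparisons (horizontal). For NT157 the ER chaperone genes have a median of 1.37 and the matrix genes one of -1.58, and for bCFAE against basal the 2 medians are -0.65 and -1.74.

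Compounds known to act on the unfolded protein response itself gave no called member. They were GSK2606414 and GSK2656157 (PERK inhibitors), ISRIB (which reverses the effect of phosphorylated eIF2alpha), Sal003 (an inhibitor of eIF2alpha phosphatases) and Tauroursodeoxycholate (a bile acid used as a chemical chaperone). The median log2 fold changes of their members were 0.11, -0.04, -0.07, -0.56 and -0.18. Hspa5, for example, had 164.5, 151, 181 and 123.1 CPM in the first 4 wells, against a plate 1 median of 164 CPM, and 328 CPM in the Tauroursodeoxycholate well, against a plate 3 median of 286.5 CPM. In edgeR's test 0 of all genes were called in these 5 compounds, and of 46 tests of a member 1 had an unadjusted p under 0.05 (Pdia4 in Tauroursodeoxycholate, log2 fold change 0.80).

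Within a plate the members were correlated to unlike degrees. Over the 223 screening wells, with log2(CPM + 1) centred on each plate's median, the highest correlations were those of Hsp90b1 with Manf (r = 0.51), Calr with Pdia6 (0.45) and Hspa5 with Hsp90b1 (0.43). Without the NT157 well the 3 values were 0.47, 0.45 and 0.37. Hsp90b1 and Calr were uncorrelated (r = 0.01), and Calr with Manf had -0.14. Wells of a plate share 1 library and differ in depth, and the level of Calr (r = -0.42) and Hspa5 (-0.29) also moved with the well's log2 total. Sdf2l1, Pdia4 and Dnajb9 had medians of 2 to 10 counts a well on every plate, and their low correlations are read as no finding. The same holds for Creld2, with a median of 8 counts on plate 1. Counting noise lowers r for the other members too, so a low r does not show that they move apart.

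**Figure D5:**
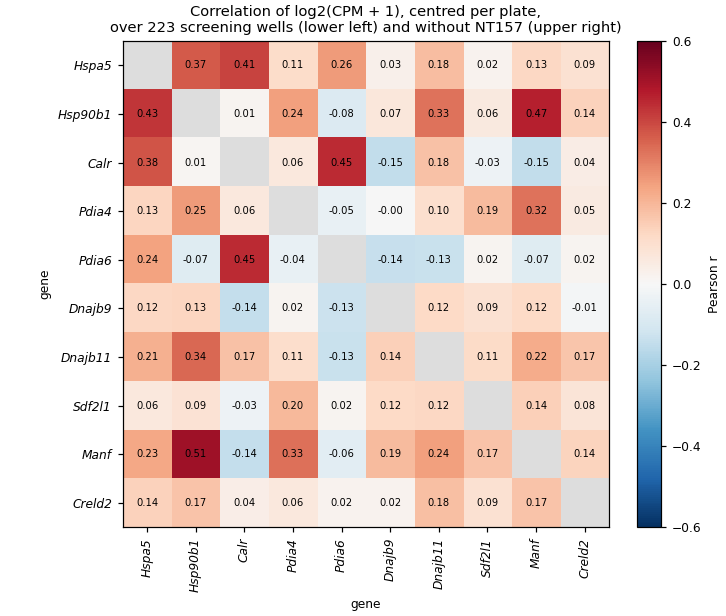
Pearson r (colour and number) between the ER chaperone genes over the 223 screening wells (lower left) and without NT157 (upper right), from log2(CPM + 1) centred per plate. Hsp90b1 and Manf have the highest value, 0.51 with and 0.47 without NT157.

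The genes whose pattern over these 223 wells was most like the members' mean, among 6997 genes averaging 10 CPM or more on each plate, were Tmem167 (r = 0.53), Prnp (0.52), Cd151 (0.51), Mrfap1 (0.49), Gnas (0.49), Qsox1 (0.48), Serinc1 (0.48), Sema3c (0.47), Sec13 (0.47) and Sparc (0.46). Without the NT157 well 5 of these stayed among the 10 highest, and Qsox1 led (r = 0.51). The mean weighs all members alike, so the noise of Sdf2l1, Pdia4 and Dnajb9, with few counts, enters this ranking.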

How the data were processed

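The authors deposited a table of whole-number counts per gene and well of 3 DRUG-seq2 plates, with barcode lists that name the wells of each plate. The submitters' processing notes name the aligner STAR and the build mm10. The sources used here do not give the STAR version, the counter, its annotation, its strand setting or whether molecular identifiers were collapsed. Of 274 columns, 258 were matched to a plate by the lists and 16 were not used. Of these, 4 held exactly the values of a like-named column and were dropped, leaving 254 wells. One deposited column of counts was entered under the unit other, since its compound name reads like a chromosome. The table held 26 gene names turned into dates and 0 ERCC spike-in genes. Of 222 compound wells, 4 were left out, with totals under 10% of the plate's median.

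CPM were computed from the counts and the well's total. Tests used edgeR 4.0.16 (R 4.3.3) with TMM scaling, filterByExpr at a minimum count of 10, the quasi-likelihood test and Benjamini-Hochberg adjustment over all genes of a comparison. Called means an adjusted p under 0.05. The wells of 8 media shared 1 fit (6985 genes). Compounds were fitted per plate (7584, 9431 and 8298 genes), and target classes, set by what is generally known of each compound, with a plate term (8002 genes). The standard error (SE) is the log2 fold change divided by the square root of the F statistic. Alternatives included DESeq2 1.42.0 for the media. The fits were also run on simulated counts of 1 fixed spread, with changes set only in genes of higher counts. That check does not cover members with few counts. The replicate number in the names of media wells was not used as a block. All 10 members were named, with up to 6 called genes of each other list (those of largest fold change), the compounds with most called members and the 10 genes of highest correlation. The members, lists, classes and tests were chosen with earlier results of these data known, as were the 5 compounds directed at the unfolded protein response. Gene positions and exon overlaps come from GENCODE vM21 on mm10, and promoter windows from RefSeq starts.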

Additional observations from a re-analysis of the deposited data

Results flagged for a closer look

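In 6 of the 50 groups of a member's values in a medium with 4 or 5 wells, 1 well lay far from the others by Dixon's test, which chance gives in about 1 of 20 groups. In bC8FAE 4, the well of lowest total, Hspa5 had 545 CPM (269 to 314 in the other 4 wells), Hsp90b1 had 209.6 CPM (48.6 to 73.8) and Pdia4 had 67.1 CPM (9.88 to 25.3; 8 counts). Creld2 had 72.1 CPM in MEF 3 (42.5 to 46.6 in the other 3 wells; 10 counts). Dnajb9 had 27.1 CPM in bCLFAE 3 (13.6 to 15.5; 12 counts), and Dnajb11 had 87.2 CPM in bCLFAE 1 (70.8 to 73.5; 45 counts). The wells named nocell, which enter no comparison, held counts of the members: 18 in nocell 2, of a total of 4280, and 95 in nocell 3, of a total of 25308, where a count of 0 would allow up to 3. Scaled to the well's total, the members together reached 4206 CPM in nocell 2 and 3754 CPM in nocell 3. The 2 totals were 0.988% and 5.84% of the median of plate 3. The part of such counts in compound wells of low total, such as Ro_5126766 (45416) and Avitinib (92437), was not tested.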

How the results depend on the processing

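Of 328 recomputed counts of called members, 292 stayed within 1.5 times and 36 did not, and no called log2 fold change turned its sign. A count of 0 that stayed at 0 was taken as within 1.5 times. Many counts were 0 in the fits as reported, so the 292 does not measure how well the calls held. Over the fits with 1 well or 1 compound left out, a single call held 86 times and was lost 30 times. For members lower in bCFAE against basal, the count of 5 became 3 with library totals and 3 with no low-count filter. Library totals gave 1 member lower in bC8FAE against bCFAE and 1 higher in bC6FAE[10] against bCFAE. In the compound wells they gave 1 lower on plate 2, and 1 higher and 2 lower on plate 3. With no low-count filter, 0 were higher in bC6FAE[10]. Without MEF 3 and bC8FAE 4, 1 was lower in bC8FAE, 1 higher in bC6FAE[2] and 1 lower in bCLFAE, each against bCFAE. With the bC8FAE wells as the only comparison wells of plate 3, 2 tests were higher and 3 lower. Adjusted over all compounds of a plate, 0 higher and 0 lower remained on plate 1, 4 higher and 1 lower on plate 2, and 0 compounds had 5 or more members. The replicate block left 1 member higher in bC6FAE[10] against bCFAE in place of 2 and moved no other count by over 1.5 times. Deviations of same-numbered wells had a median r of 0.0196 over 94 pairs, with 7 over 0.1. Pairs of other numbers had -0.00447 over 298 pairs, with 12 over 0.1. Of 30 wells, 11 correlated best with a well of their own number. Deviations from the mean of so few wells a medium cannot settle whether the number is a pairing.

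When 1 well was left out, the counts ranged from 2 to 5 (lower in bCFAE against basal), 4 to 6 (lower in bC8FAE against MEF), 0 to 1 (lower in bC8FAE against bCFAE), 0 to 2 (higher in bC6FAE[10] against bCFAE) and 0 to 1 (lower in bCLFAE against bCFAE). When 1 compound was left out they ranged from 0 to 3 in the MEK class, 0 to 3 in the FGFR class and 2 to 3 in the mTOR class. The FGFR and mTOR ranges, and the correlations without NT157, were chosen after seeing the data. With log2(CPM + 10), 6 of the 10 genes most like the members' mean stayed among the 10, and without NT157 5 did. Another scale moved the median of all genes by over 0.1 on the log2 scale in several comparisons. With library totals these included bCFAE against basal (0.13), Trametinib (0.20), FIIN_2 (0.26) and GDC_0623 (0.12). They also included the classes MEK (0.16), CDK7 and CDK9 (0.14), PLK1 and polo box (0.11), LIMK (0.104), Oxindole VEGFR/PDGFR (-0.12) and IRAK (-0.11). With RLE they included NT157 (0.11), Avitinib (0.20) and PF_04979064 (0.14). Depth limits Sdf2l1, Pdia4 and Dnajb9 most: a compound's median SE on plate 1 was 1.28 for Sdf2l1 and 1.02 for Pdia4, against 0.32 for Hspa5.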

Other observations

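Brigatinib, an ALK inhibitor, had the highest Manf (240.3 CPM), Hsp90b1 (151 CPM), Pdia6 (405 CPM) and Sdf2l1 (23.8 CPM) among the 41 compound wells of plate 3, and none of these was called. With library totals as the scale, Creld2 was called higher in LDC4297 (1.10) and Pdia6 lower in BEZ235 (-0.96), and with wells of at least 25% of the plate's median total Calr was called lower in CC_115 (-0.67) and Pdia6 in APTO_253 (-1.03). Against the bC8FAE wells alone, Manf was called higher in Brigatinib (1.03) and LDC4297 (0.71), and Pdia6 lower in BEZ235 (-0.99) and Rigosertib (-0.9998).

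The lowest mean of the members relative to its plate was in the IRAK_inhibitor_6 well of plate 2 (-0.99 on the log2 scale), where all 10 members had negative log2 fold changes and 0 were called. Its Hspa5 (126 CPM), Manf (54.0 CPM), Creld2 (7.20 CPM, 2 counts) and Dnajb9 (3.60 CPM, 1 count) were the lowest of the plate. The highest mean after NT157 (1.29) was that of GDC_0623 (0.76), followed by Hydroxyfasudil (0.72), an inhibitor of ROCK kinases, with the highest Calr (2967 CPM) and Hspa5 (324 CPM) of plate 1 in a well of 148293 counts. The mean weighs all members alike, also those of few counts. In Hydroxyfasudil Sdf2l1 (2.17) and Pdia4 (1.69) lay furthest above their plate medians, and Manf (-0.79) and Dnajb11 (-0.01) lay below theirs. In GDC_0623 too Sdf2l1 (1.83) and Pdia4 (1.67) lay furthest above. Plate medians of Hspa5 were 164, 191.5 and 286.5 CPM on plates 1, 2 and 3, and those of Calr 1937, 2048 and 2061 CPM. Plates are separate libraries and were not compared.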
